A study of Mus musculus with 95 samples.

Results

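Whole lungs of female C57BL/6 mice were studied after 14 days of exposure to the fungus Pneumocystis murina. They were compared with lungs of unexposed C57BL/6 mice killed on the same day. The labels give an age of 8 weeks for the arrays of every day, so the age at which the lungs were taken is not clear. The members were chosen by their sample labels alone: 8 arrays labelled as exposed for 14 days and 6 labelled as unexposed at 14 days, 14 of the 95 arrays of the series. The exposed mice had been caged with a seeder mouse carrying a heavy Pneumocystis murina infection, and the unexposed mice lived in other cages without a seeder. They belong to an experiment of 5 cages, 3 exposed and 2 unexposed, from which 1 to 3 animals per cage were taken at days 7, 14 and 21. Which mouse came from which cage is not in the labels, so an effect of the cage and an effect of the exposure cannot be told apart. Each array is called a mouse here and keeps its number from the labels, and the tests treat the mice as independent. The labels of the C57BL/6 groups of days 7, 14 and 21 name no genetic change and no drug treatment. The rest of the series, used below only as a backdrop for the granzymes and in an alternative fit, holds C57BL/6 mice of later days and mice labelled CD40L-KO, a knockout of the CD40 ligand, exposed or unexposed. RNA came from homogenates of whole lung, so fewer cells of a type and less RNA per cell cannot be told apart.

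Pneumocystis lives in the air spaces of the lung, attached to alveolar epithelium, and grows slowly. Mice with a working immune system clear it through CD4 T cells, B cells and macrophages, and a seeder mouse passes it to its cage mates through the air. Infections of the lung commonly switch on interferon-stimulated genes, which restrict pathogens inside cells, and bring in cytotoxic lymphocytes, whose granules hold granzymes (serine proteases) and perforin. Plasma cells of the airways make immunoglobulin A, the antibody class of mucosal surfaces.

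The arrays measured 8252 genes, each through its brightest probe set, and all levels below are log2(intensity + 8), on which the value 3 means no signal. A difference is the exposed mean minus the unexposed mean on that scale, so it understates the change of dim genes. The array medians of the 14 mice lay between 39.2 and 44.1 intensity units. Lung epithelial genes had a mean log2 level of 10.1 to 10.6 in the exposed mice and 10.1 to 10.5 in the unexposed mice, with no member of the list at background. In all 14 mice the female transcript Xist (log2 level 7.71 or more) was far above the Y-linked Eif2s3y (3.95 or less). Unexposed mouse 4 stood apart: its squamous epithelium score was 7.62 and its skeletal muscle score 8.35, against at most 5.39 and 5.57 in the 13 other mice. The 3' over 5' signal ratio of the Gapdh control probe sets, a measure of RNA integrity, ranged from 0.975 to 1.81 in exposed mice, with the highest value in mouse 6, and from 1.01 to 1.26 in unexposed mice. Exposed mouse 6 also had the lowest B cell (5.09), T cell (4.76) and macrophage and monocyte (6.53) scores of the 14 mice. Its neutrophil (5.09) and plasmacytoid dendritic cell (5.56) scores were the lowest too, and its erythroid score (7.30) was the highest.

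Between the exposed and the unexposed mice of day 14, 23 of the 8252 genes differed, 0.279%, at an adjusted p under 0.05 in limma. Of these, 19 rose (0.23%) and 4 fell (0.0485%). The genes that rose were 4 neighbouring granzymes (Gzmc, Gzmd, Gzmf, Gzmg), 4 interferon-stimulated genes (Rsad2, Irf7, Isg15, Isg20), the immunoglobulin A heavy chain Igha, the chemokine Ccl5, the natural killer receptor Klra3, the leukocyte genes Slfn4, Selplg and Tyrobp, the red-cell genes Slc4a1 and Nfe2, and Mthfd2, Tspan33 and Gm9706. The genes that fell were the smooth muscle genes Tagln and Myh11, the clock gene Per2 and the secretory-pathway receptor Kdelr1. At an unadjusted p under 0.05, 659 genes differed (7.99%), 359 of them higher (4.35%) and 300 lower (3.64%). These shares of all genes are the backdrop for the counts of list members below. Every exposed mouse lay above every unexposed mouse in 9 genes (0.109%) and below in 4 (0.0485%). The median difference over all genes was -0.0023 log2 units, and 49.1% of genes had a positive difference.

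The spread in this test was estimated over the 37 mice of days 7, 14 and 21. With the spread taken from the 14 mice of day 14 alone, 6 genes passed: Igha, Irf7 and Mthfd2 higher, and Myh11, Per2 and Tagln lower. Nearest the threshold on the inside were Kdelr1 (adjusted p = 0.0439) and Klra3 (adjusted p = 0.0465). Just outside it, and named for that place after their values were seen, were Ube2l6, the enzyme that helps attach Isg15 to proteins, at a difference of 0.70 (SE 0.17, adjusted p = 0.0673), and the platelet receptor subunit Gp1bb at 0.94 (SE 0.23, adjusted p = 0.0673).

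**Figure D1:**
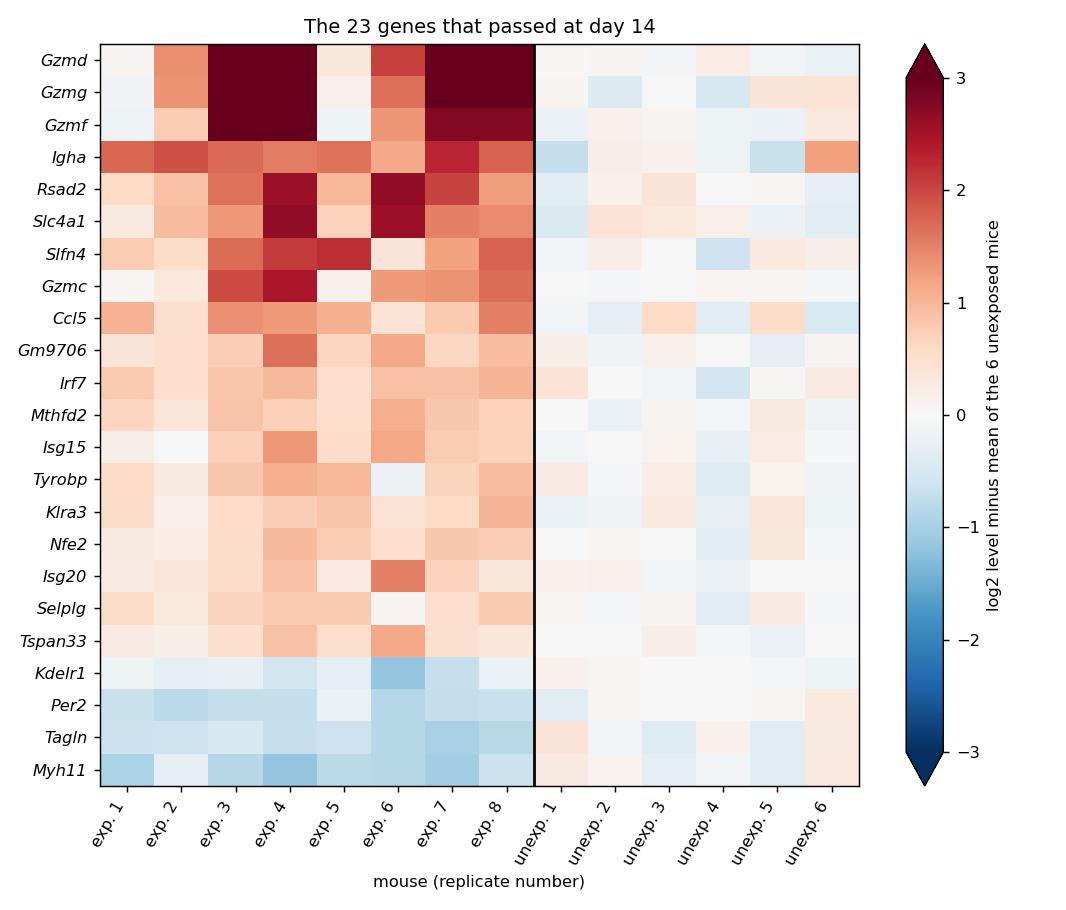
Each cell shows the log2 level of 1 of the 23 genes in 1 mouse minus the mean of the 6 unexposed mice; columns 1 to 8 are exposed and the last 6 unexposed, and colours stop at 3 in both directions. The 3 top rows (Gzmd, Gzmg, Gzmf) are dark in exposed mice 3, 4, 7 and 8 and near white in exposed mice 1 and 5, whereas Igha is raised in every exposed mouse.

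Gzmd, Gzmg and Gzmf had the largest differences of the 23 genes and the widest spread among exposed mice. Gzmc, Gzmd, Gzmf and Gzmg encode serine proteases of cytotoxic lymphocytes and lie side by side on mouse chromosome 14, where the order of neighbours is Gzme, Gzmd, Gzmg, Gzmn, Gzmf, Gzmc and Gzmb. The 4 genes are close copies of each other. The letters below, the stretch before the start of each gene, are shown because they let a reader see how alike these stretches are. The arrays measure transcripts, and the letters of the transcripts were not compared. The sequences are from RefSeq, build GRCm38.p6, on the minus strand, and capitals mark the 20 bases that all 4 share.
Gzmd: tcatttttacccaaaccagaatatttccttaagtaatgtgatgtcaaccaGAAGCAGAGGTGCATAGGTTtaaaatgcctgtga
Gzmg: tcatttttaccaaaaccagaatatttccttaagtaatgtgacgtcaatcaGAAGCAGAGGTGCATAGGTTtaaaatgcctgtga
Gzmf: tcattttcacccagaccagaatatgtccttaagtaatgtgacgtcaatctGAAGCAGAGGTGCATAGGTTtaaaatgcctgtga
Gzmc: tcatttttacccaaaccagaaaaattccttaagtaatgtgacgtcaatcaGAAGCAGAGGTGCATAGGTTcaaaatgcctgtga
These stretches lie at chr14:56132609-56132692 for Gzmd, chr14:56159611-56159694 for Gzmg, chr14:56211444-56211527 for Gzmf and chr14:56234669-56234752 for Gzmc. Over the aligned promoter letters, identity between pairs of the 4 genes ranged from 84.4% (Gzmd and Gzmc) to 89.3% (Gzmd and Gzmg). The run in capitals was found in the promoters of 5 of the 27025 genes in the table, these 4 and Gzme.

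The log2 level of Gzmd was 3.40, 4.72, 8.05, 8.53, 3.66, 5.38, 6.97 and 7.64 in exposed mice 1 to 8, against 3.12 to 3.53 in the 6 unexposed mice. Exposed mice 3, 4, 7 and 8 were far above background, mice 2 and 6 in between, and mice 1 and 5 within or just above the unexposed range. The mean log2 level was 6.04 ± 2.02 in exposed mice and 3.32 ± 0.15 in unexposed mice (SD, n = 8 and 6), a difference of 2.73 (SE 0.52, adjusted p = 0.00947). Gzmg had log2 levels of 4.06, 5.51, 7.80, 8.44, 4.31, 5.80, 7.25 and 7.56 in exposed mice 1 to 8, against 3.67 to 4.57 in unexposed mice, a difference of 2.18 (SE 0.44, adjusted p = 0.0119). The same 4 mice were highest again, and mice 1 and 5 lay inside the unexposed range. Gzmf reached 7.08 in exposed mouse 4, with a median log2 level of 5.38 in exposed mice and 3.31 in unexposed mice, and its difference was 1.77 (SE 0.39, adjusted p = 0.0292). Gzmc reached 5.62 in exposed mouse 4, with medians of 4.50 in exposed mice and 3.16 in unexposed mice, and its difference was 1.15 (SE 0.25, adjusted p = 0.0286). Fewer exposed mice stood out for Gzmf, where 6 of 8 exceeded every unexposed mouse, than for Gzmd and Gzmc, where 7 of 8 did.

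The unexposed mice were at or close to background for Gzmc, Gzmd and Gzmf, so their spread was very small, and these calls rest on the spread pooled over days. The fit took 1 spread per gene for all 6 groups, although the exposed mice of day 14 varied most. For Gzmd their SD was 2.02, against 0.15 to 0.76 in the other groups of the fit. The SE and adjusted p from limma are thus too small for the spread of the exposed mice, also in the fits that left out 1 mouse. With only the 14 mice of day 14 in the fit, the adjusted p was 0.381 for Gzmd, 0.392 for Gzmg, 0.399 for Gzmc and 0.446 for Gzmf, with the same differences. Gzmd passed in each of the 14 fits that left out 1 mouse, and Gzmg in 13 (adjusted p = 0.0571 without unexposed mouse 4). Gzmc and Gzmf passed in 4 of the 14 and were lost without exposed mouse 3, 4, 7 or 8 or without any 1 of the 6 unexposed mice (adjusted p up to 0.0776 for Gzmc and 0.10 for Gzmf). With a term for the Gapdh ratio, Gzmc and Gzmf also missed the threshold (adjusted p = 0.0576 for each). A second, dimmer probe set exists for Gzmc and for Gzmg, and its difference was 0.04 (SE 0.13) and 0.02 (SE 0.10). The Gzmd probe set is of the kind whose probes match a gene family, and a further probe set annotated to Gzme and Gzmd together was higher by 1.99 (SE 0.45, adjusted p = 0.0435 over all probe sets). Whether signal is shared among these copies was not tested, and the level of each gene on its own is uncertain.

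No other group of the series reached the granzyme levels of the highest day 14 exposed mice. In 5 of the 8 day 14 exposed mice Gzmd, Gzmf and Gzmc were each above the highest of the 87 other arrays of the series, and in 4 of the 8 Gzmg was. The highest log2 level elsewhere was 5.11 for Gzmd, in an exposed C57BL/6 mouse of day 21, and 5.88 for Gzmg, in an unexposed C57BL/6 mouse of day 34. These other arrays come from other days, other experiments and also from CD40L-KO mice, and the levels are given as a description.

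**Figure D2:**
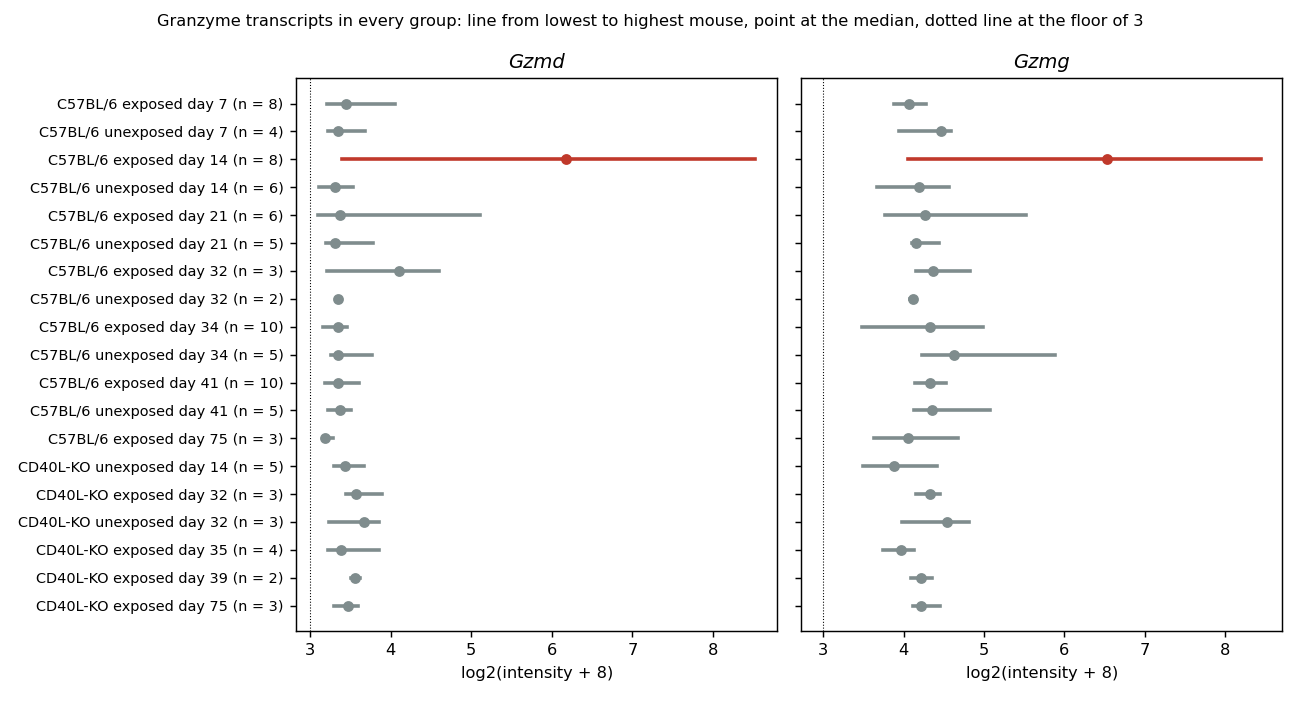
Lines run from the lowest to the highest mouse of each group of the series and points mark the median log2(intensity + 8) of Gzmd and Gzmg, with the number of mice in brackets and the day 14 exposed group in red. The red line spans 3.40 to 8.53 for Gzmd, and no other group passes 5.11.

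The other cytotoxic genes moved less. Of 29 measured genes of cytotoxic and natural killer cells, 6 rose, none fell and 23 did not pass. The 6 are the 4 granzymes above, Ccl5 and Klra3. The median difference was 0.33, with 26 positive differences and 16 genes higher at an unadjusted p under 0.05 in limma. For comparison, 0.23% of all genes rose and 4.35% were higher at that p. Ccl5, a chemokine made by activated T and natural killer cells, had log2 levels of 7.63, 8.26 and 8.71 (lowest, median, highest) in exposed mice, against 6.74, 7.02 and 7.80 in unexposed mice. Of the exposed mice, 6 exceeded every unexposed mouse, and unexposed mice 3 and 5 reached the level of the lowest exposed mice. The Ccl5 difference was 0.99 (SE 0.20, adjusted p = 0.0172); it was lost without exposed mouse 8 or without unexposed mouse 2, 4 or 6 (adjusted p up to 0.0789). Klra3, an inhibitory receptor of natural killer cells, had log2 levels of 4.96, 5.42 and 5.86 in exposed mice, against 4.61, 4.72 and 5.20 in unexposed mice, a difference of 0.61 (SE 0.14, adjusted p = 0.0465). Exposed mouse 2 alone lay inside the unexposed range of Klra3, whose call was lost without exposed mouse 3, 4, 5, 7 or 8 or unexposed mouse 1, 2, 4 or 6 (adjusted p up to 0.162) and with a term for the Gapdh ratio (adjusted p = 0.0814). Klra3 belongs to a family of close copies, and Klra7, a neighbour in that family chosen after its value was seen, differed by 0.18 (SE 0.13, adjusted p = 0.838).

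Gzmb, the main apoptosis-inducing granzyme, had log2 levels of 5.52, 6.18 and 6.77 in exposed mice, against 4.81, 5.47 and 5.94 in unexposed mice. Its difference was 0.80 (SE 0.20, adjusted p = 0.0798), and 5 of the 8 exposed mice exceeded every unexposed mouse. Gzma differed by 0.67 (SE 0.23, adjusted p = 0.338) and the pore-forming perforin Prf1 by 0.23 (SE 0.26, adjusted p = 0.911). Of 23 measured T cell genes none passed in limma, 2 were higher at an unadjusted p under 0.05, and the median difference was 0.17. The signalling subunit Cd3e of the T cell receptor differed by 0.85 (SE 0.38, adjusted p = 0.556) and the T cell kinase Txk by 0.53 (SE 0.18, adjusted p = 0.292).

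Interferon-stimulated genes were the second group with several calls. Of 44 listed genes 26 were measured, of which 4 rose and 22 did not pass. Of the 26, 24 had a positive difference, and the median was 0.21. At an unadjusted p under 0.05 in limma, 10 were higher. Over all genes 49.1% were positive and 4.35% were higher at that p. The lean was not particular to this list. Positive differences were found in 20 of 22 interferon-gamma response genes, 21 of 23 T cell genes and 26 of 30 macrophage and monocyte genes. They were found in 10 of 19 B cell identity genes and 6 of 16 goblet cell and type 2 genes. The mean log2 level of the interferon-stimulated list was 6.54 to 6.83 in exposed mice, against 6.28 to 6.49 in unexposed mice. The ranges did not overlap, but the list was chosen with results of these data known, so this is a description.

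Rsad2 encodes viperin, an antiviral enzyme induced by interferon. Its log2 level was 6.77, 7.05, 7.78, 8.77, 7.16, 8.83, 8.19 and 7.42 in exposed mice 1 to 8, against 5.85, 6.31, 6.56, 6.19, 6.19 and 5.91 in unexposed mice 1 to 6. Every exposed mouse exceeded every unexposed mouse, with mice 4 and 6 highest. The difference was 1.58 (SE 0.27, adjusted p = 0.00142), 2.99-fold on this scale, and held in all 14 leave-one-out fits, where it ran from 1.42 to 1.72. As for the granzymes, exposed mice varied more (SD 0.79) than unexposed mice (SD 0.26). With only the 14 mice of day 14 in the fit, Rsad2 did not pass in limma (adjusted p = 0.107). Irf7, the transcription factor that amplifies interferon responses, had log2 levels of 5.92, 6.26 and 6.44 in exposed mice, against 4.84, 5.41 and 5.82 in unexposed mice. Every exposed mouse exceeded every unexposed mouse, and the difference was 0.80 (SE 0.17, adjusted p = 0.025). The second probe set of Irf7 differed by 0.13 (SE 0.10). Irf7 passed in 8 of the 14 leave-one-out fits and was lost without exposed mouse 4, 7 or 8 or unexposed mouse 2, 3 or 4 (adjusted p up to 0.108).

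Isg15, a ubiquitin-like protein attached to other proteins, had log2 levels of 6.83, 7.56 and 8.16 in exposed mice, against 6.63, 6.83 and 7.08 in unexposed mice. Exposed mice 1 and 2 lay inside the unexposed range. The difference was 0.67 (SE 0.15, adjusted p = 0.0286). Isg20, an RNA-degrading exonuclease, had log2 levels of 8.12, 8.35 and 9.40 in exposed mice, against 7.70, 7.89 and 8.03 in unexposed mice, with no overlap. Its difference was 0.60 (SE 0.13, adjusted p = 0.0292). Isg15 and Isg20 each passed in 7 of the 14 leave-one-out fits. Both were lost without exposed mouse 4 or 7 or unexposed mouse 2, 4 or 6, Isg15 also without exposed mouse 8 or unexposed mouse 1, and Isg20 also without unexposed mouse 3 or 5 (adjusted p up to 0.105). Both also missed the threshold with a term for the Gapdh ratio, which was highest in exposed mouse 6 (adjusted p = 0.0576 for each), whereas Rsad2 (1.52, adjusted p = 0.00411) and Irf7 (0.80, adjusted p = 0.0426) passed in that fit. With a term for the cardiac muscle score, added after seeing the data, Rsad2 passed (1.36, adjusted p = 0.0054) and Irf7, Isg15 and Isg20 did not (adjusted p = 0.0621, 0.0621 and 0.0709). In Rsad2, Isg15 and Isg20 the highest exposed mice were mice 4 and 6, and mouse 8 was the highest for Irf7.

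The promoters of Isg15 and Rsad2 are shown because, of the 13 called genes with a promoter in the table, these 2 had a match to the core letters of an interferon-stimulated response element in the 250 bases before the start. The motif searched was GAAA, any 2 bases and GAAA again, or its reverse complement TTTC, any 2 bases and TTTC. Capitals mark the matches, of which 3 overlap in Isg15 and 1 stands alone in Rsad2. The sequences are from RefSeq, build GRCm38.p6, minus strand, at chr4:156200839-156200958 for Isg15 and chr12:26456473-26456592 for Rsad2.
Isg15: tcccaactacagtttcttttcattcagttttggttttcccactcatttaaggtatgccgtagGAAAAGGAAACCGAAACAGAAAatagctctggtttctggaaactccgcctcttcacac
Rsad2: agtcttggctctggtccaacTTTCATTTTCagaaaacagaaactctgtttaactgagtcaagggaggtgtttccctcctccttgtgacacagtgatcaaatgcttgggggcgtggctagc
The share among the called genes was 15.4%, 2 of 13 genes. Matches were found in 6 of 19 interferon-stimulated genes of the list with a promoter (31.6%), against 936 of all 27025 genes (3.46%). Of the cytotoxic and natural killer cell genes with a promoter, 4 of 23 had a match (17.4%). A raised share was thus not particular to the interferon-stimulated list. No match was found for Irf7 or Isg20 in this window, which says only that these letters are not there.

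Genes known for the response to interferon gamma did not pass. Of 22 measured, none was called in limma and the median difference was 0.22. Higher at an unadjusted p under 0.05 were 5 of them, against 4.35% of all genes. The chemokine receptor Cxcr3, carried by activated T cells, differed by 0.40 (SE 0.15, adjusted p = 0.438), and the guanylate-binding protein Gbp3 by 0.45 (SE 0.18, adjusted p = 0.461). Cxcl9, a ligand of Cxcr3, had a mean log2 level of 3.90 ± 0.39 in exposed mice and 3.71 ± 0.45 in unexposed mice (SD, n = 8 and 6). Among 22 genes of interferon ligands, receptors and signalling, Irf7 rose and 21 did not pass, and 7 markers of plasmacytoid dendritic cells, a main source of type I interferon, had a median difference of 0.0041 with none called and none under an unadjusted p of 0.05.

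**Figure D3:**
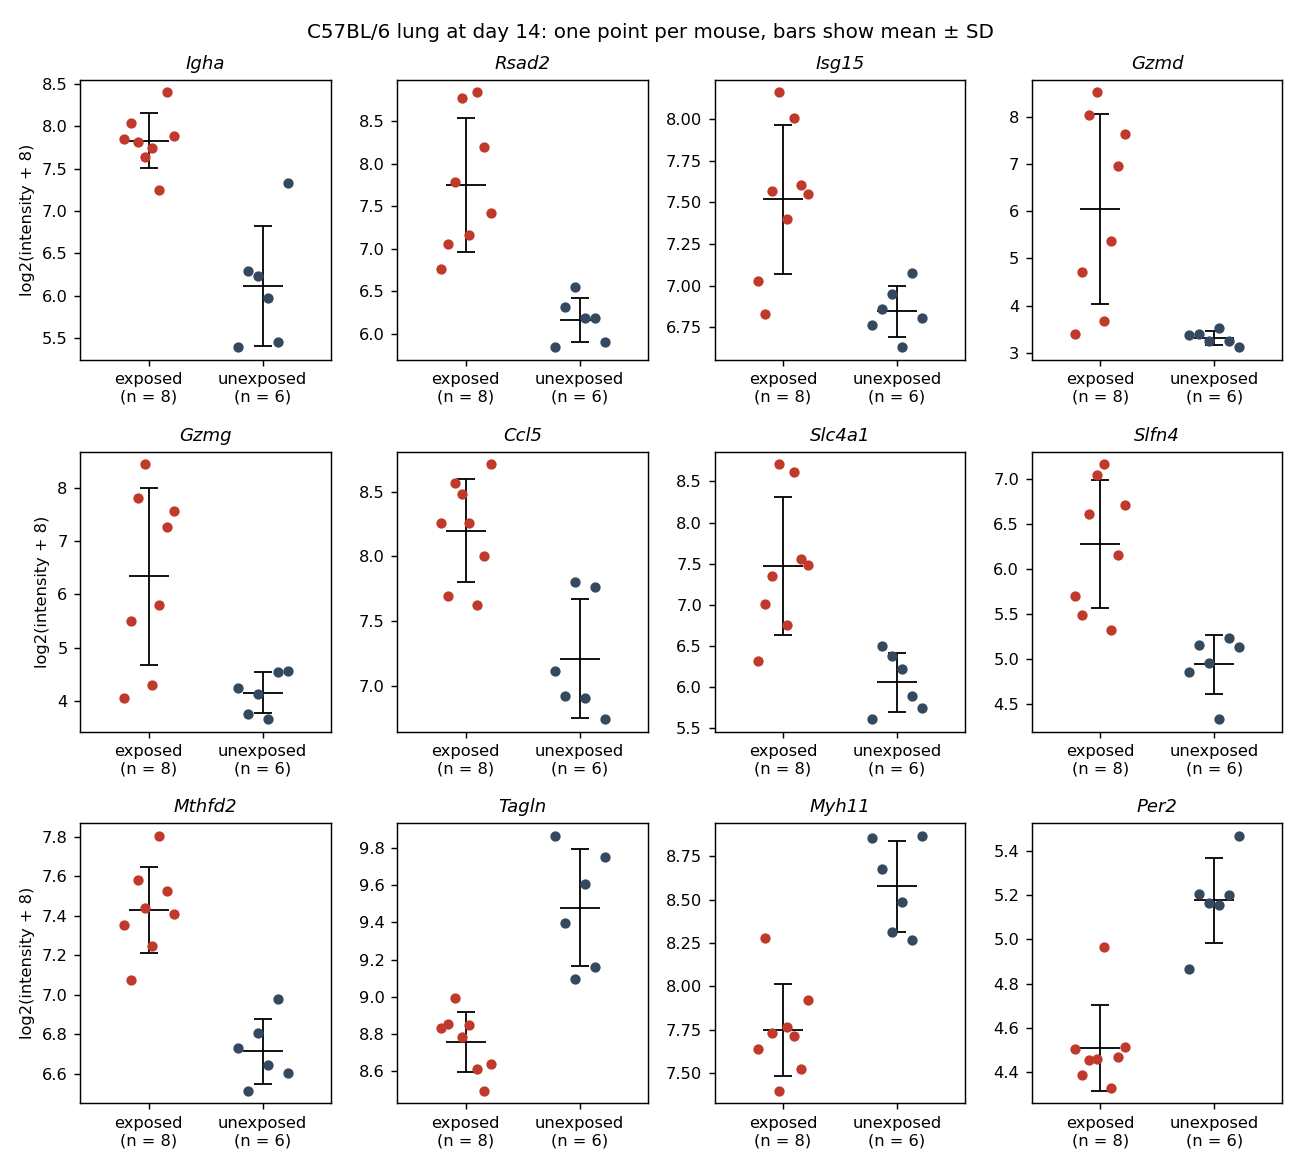
Each point is 1 mouse, exposed (red) left of unexposed (dark blue), with the mean and SD drawn as bars and log2(intensity + 8) on the vertical axis, which does not start at 0. Rsad2, Mthfd2, Slfn4 and Tagln have no overlap between groups, and Gzmd and Gzmg spread over the whole range in exposed mice.

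Igha, the constant region of the immunoglobulin A heavy chain, was above the unexposed mean in all exposed mice. Its SD was 0.33 among exposed mice and 0.71 among unexposed mice. Its log2 level was 7.85, 8.04, 7.82, 7.64, 7.75, 7.25, 8.40 and 7.89 in exposed mice 1 to 8, against 5.39, 6.29, 6.24, 5.97, 5.45 and 7.34 in unexposed mice 1 to 6. Exposed mouse 6 and unexposed mouse 6 overlapped, and otherwise the groups were apart. The difference was 1.72 (SE 0.28, adjusted p = 0.00103), 3.28-fold on this scale. It held in all 14 leave-one-out fits, from 1.57 to 1.96. A pair of dimmer Igha probe sets differed by 0.36 (SE 0.17) and 0.39 (SE 0.20), and with the mean of all 3 probe sets the difference was 0.82.

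Of 13 measured immunoglobulin constant region and plasma cell genes, Igha rose and 12 did not pass, with a median difference of 0.11. The immunoglobulin M heavy chain Ighm had log2 levels of 11.17 and 11.01 in exposed mice 1 and 2 and 7.54 to 9.20 in exposed mice 3 to 8, against 8.46 to 9.33 in unexposed mice, a difference of 0.40 (SE 0.42, adjusted p = 0.898). The joining chain Jchain, which links immunoglobulin M and A into polymers, was likewise highest in exposed mice 1 (8.36) and 2 (8.14), with 5.80 to 6.55 in exposed mice 3 to 8 and 5.01 to 6.69 in unexposed mice. Its difference was 1.11 (SE 0.48, adjusted p = 0.538). Exposed mice 1 and 2, the highest in Ighm and Jchain, lay below the exposed median in all 4 called granzymes. The 20 measured immunoglobulin variable segments had no call, 3 were higher at an unadjusted p under 0.05 and the median difference was 0.26; exposed mouse 1 had the highest mean of the list (6.90), against at most 5.71 in unexposed mice. Pigr, the receptor that carries immunoglobulin A across epithelium, differed by -0.11 (SE 0.11, adjusted p = 0.892). Of 19 B cell identity genes none was called, 1 was higher and 1 lower at an unadjusted p under 0.05, and the median difference was 0.022.

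Among leukocyte genes, Slfn4, Selplg and Tyrobp rose. Slfn4, a Schlafen family gene of myeloid cells, had log2 levels of 5.33, 6.39 and 7.17 in exposed mice, against 4.33, 5.04 and 5.23 in unexposed mice, with no overlap. Its difference was 1.33 (SE 0.28, adjusted p = 0.025), and it was lost without exposed mouse 4 or 8 or unexposed mouse 1 or 4 (adjusted p up to 0.101). Its relatives Slfn1 and Slfn2, chosen after their values were seen, differed by 0.83 (SE 0.23, adjusted p = 0.123) and 0.46 (SE 0.13, adjusted p = 0.148). Selplg, the ligand through which leukocytes roll on selectins, had log2 levels of 8.24, 8.76 and 8.94 in exposed mice, against 7.83, 8.17 and 8.39 in unexposed mice. Only exposed mouse 6 lay inside the unexposed range, and the difference was 0.56 (SE 0.11, adjusted p = 0.00947), lost without unexposed mouse 4 (adjusted p = 0.0578). Tyrobp, the signalling adaptor DAP12 of myeloid and natural killer cells, had log2 levels of 8.44, 9.36 and 9.69 in exposed mice, against 8.23, 8.64 and 8.86 in unexposed mice. Exposed mouse 6 was again the low one, and the difference was 0.64 (SE 0.15, adjusted p = 0.0427). The call was lost without exposed mouse 3, 4, 5, 7 or 8 or unexposed mouse 2, 4, 5 or 6 (adjusted p up to 0.165) and with a term for the Gapdh ratio (adjusted p = 0.0751).

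Tyrobp was the single gene called among 30 measured macrophage and monocyte genes, whose median difference was 0.15. Of the 30, 7 were higher at an unadjusted p under 0.05 in limma, against 4.35% of all genes. The cathepsin Ctss differed by 0.24 (SE 0.09, adjusted p = 0.39); the monocyte chemokine receptor Ccr2, chosen after its value was seen, by 0.71 (SE 0.21, adjusted p = 0.172). None of 15 neutrophil genes passed in limma. At an unadjusted p under 0.05, 7 were higher and 1 lower, against 4.35% and 3.64% of all genes. Of the 15, 13 had a positive and 2 a negative difference, and the differences ran from -1.50 to 1.44. S100a9 and S100a8, the calprotectin subunits of neutrophils and monocytes, differed by 1.41 (SE 0.36, adjusted p = 0.0907) and 1.44 (SE 0.39, adjusted p = 0.121). Their log2 levels were highest in exposed mice 4 and 5 (S100a9 9.54 and 9.56) and low in exposed mouse 6 (6.53), against 6.22 to 7.42 in unexposed mice.

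The red-cell genes Slc4a1 and Nfe2 rose, and Slc4a1 was highest in the same exposed mice as Rsad2. Slc4a1, the band 3 anion exchanger of the red-cell membrane, had log2 levels of 6.32, 7.01, 7.35, 8.71, 6.76, 8.62, 7.56 and 7.49 in exposed mice 1 to 8, against 5.61, 6.50, 6.37, 6.22, 5.89 and 5.75 in unexposed mice 1 to 6. Exposed mice 4 and 6 were highest and mouse 1 lay inside the unexposed range. The difference was 1.42 (SE 0.28, adjusted p = 0.0114), and it passed in all 14 leave-one-out fits (adjusted p up to 0.0498). Here too exposed mice varied more (SD 0.84) than unexposed mice (SD 0.36). With only the 14 mice of day 14 in the fit, Slc4a1 did not pass in limma (adjusted p = 0.244). Nfe2, a transcription factor of red-cell and platelet precursors, had log2 levels of 5.91, 6.33 and 6.65 in exposed mice, against 5.33, 5.68 and 6.01 in unexposed mice. Exposed mice 1 and 2 lay inside the unexposed range, and the difference was 0.61 (SE 0.13, adjusted p = 0.0286). The call was lost without exposed mouse 4, 7 or 8 or unexposed mouse 1, 2, 3, 4 or 6 (adjusted p up to 0.118) and with a term for the Gapdh ratio (adjusted p = 0.0576).

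Of 19 measured erythroid genes 2 rose, none fell and the median difference was 0.38. Higher at an unadjusted p under 0.05 in limma were 9 of the 19. Among all genes, 0.23% rose and 4.35% were higher at that p. Alas2, the first enzyme of heme synthesis in red cells, differed by 1.07 (SE 0.27, adjusted p = 0.084), with 7 of 8 exposed mice above every unexposed mouse. Bpgm, a red-cell enzyme chosen after its value was seen, differed by 0.87 (SE 0.22, adjusted p = 0.0907) with no overlap between groups. The globin gene Hba-a1, also chosen later, had a mean log2 level of 12.85 ± 0.20 in exposed mice and 12.78 ± 0.14 in unexposed mice (SD, n = 8 and 6), near the top of the scale. The erythroid score was 6.55 to 7.30 in exposed mice, highest in mouse 6 and next in mouse 4, against 6.40 to 6.60 in unexposed mice. With this score as a covariate, which itself differed between the groups and includes Slc4a1 and Nfe2, 1 gene passed: Igha, at 1.91 (adjusted p = 0.043). In that fit the difference was 0.51 for Rsad2 (adjusted p = 0.442), 0.19 for Isg15 (adjusted p = 0.843), 0.14 for Isg20 (adjusted p = 0.872) and 1.75 for Gzmd (adjusted p = 0.547). Other genes missed the threshold there with a difference closer to that without the covariate: 0.65 for Tyrobp (adjusted p = 0.364), 0.51 for Selplg (adjusted p = 0.266), 0.86 for Ccl5 (adjusted p = 0.364), 1.12 for Slfn4 (adjusted p = 0.419) and -0.57 for Per2 (adjusted p = 0.19).

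The contractile genes Tagln and Myh11 of smooth muscle fell. Tagln, the actin-binding protein transgelin, had log2 levels of 8.83, 8.86, 9.00, 8.78, 8.85, 8.62, 8.50 and 8.64 in exposed mice 1 to 8, against 9.86, 9.39, 9.10, 9.61, 9.16 and 9.75 in unexposed mice 1 to 6. Every exposed mouse lay below every unexposed mouse, and the difference was -0.72 (SE 0.11, adjusted p = 0.00103). Myh11, the myosin heavy chain of smooth muscle, had log2 levels of 7.40, 7.72 and 8.28 in exposed mice, against 8.27, 8.58 and 8.87 in unexposed mice. Exposed mouse 2 was the only one to reach the unexposed range, and the difference was -0.83 (SE 0.13, adjusted p = 0.00103), a level 1.78-fold lower. Both genes passed in all 14 leave-one-out fits.

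Of 20 measured contractile genes 2 fell, none rose and 18 had a negative difference, with a median of -0.29. Lower at an unadjusted p under 0.05 in limma were 9 of the 20. Among all genes, 0.0485% fell and 3.64% were lower at that p. The smooth muscle actin Acta2 differed by -0.51 (SE 0.14, adjusted p = 0.153); calponin Cnn1 and tropomyosin Tpm1, chosen after their values were seen, differed by -0.74 (SE 0.23, adjusted p = 0.22) and -0.27 (SE 0.07, adjusted p = 0.0673). Of 16 cardiac muscle genes none passed in limma, 3 were lower at an unadjusted p under 0.05 and the median difference was -0.85. Their mean log2 level was 5.08 to 7.87 in exposed mice, with mouse 2 highest, and 5.75 to 8.01 in unexposed mice, with mouse 4 highest. The atrial myosin Myh6 had log2 levels of 5.52, 7.04 and 10.64 in exposed mice, against 7.39, 8.84 and 9.78 in unexposed mice, a difference of -1.43 (SE 0.62, adjusted p = 0.535). With the cardiac score as a covariate the difference was -0.64 for Tagln and -0.70 for Myh11 (adjusted p = 0.00328 for each), and 21 genes passed in that fit, 12 of the 23 among them.

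Per2, a repressor of the circadian clock, fell. Its log2 level was 4.33, 4.46 and 4.97 in exposed mice, against 4.87, 5.18 and 5.47 in unexposed mice. Exposed mouse 5, the high one, was inside the unexposed range, and 7 of 8 exposed mice lay below every unexposed mouse. The difference was -0.67 (SE 0.11, adjusted p = 0.00103). Of 18 measured clock genes Per2 alone passed, with a median difference of -0.045. Per1 differed by -0.27 (SE 0.26, adjusted p = 0.894), Per3 by 0.10 (SE 0.11, adjusted p = 0.898), the activator Arntl by 0.13 (SE 0.10, adjusted p = 0.838), the output gene Dbp by 0.09 (SE 0.13, adjusted p = 0.948) and the repressor Nr1d1 by 0.36 (SE 0.17, adjusted p = 0.609). The time of day at which the lungs were taken is not given in the labels.

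The remaining called genes belong to no list used here. Mthfd2, an enzyme of mitochondrial folate metabolism found in dividing cells, had log2 levels of 7.08, 7.42 and 7.80 in exposed mice, against 6.52, 6.69 and 6.98 in unexposed mice, with no overlap. Its difference was 0.71 (SE 0.12, adjusted p = 0.00103), and that of its dim second probe set was 0.06 (SE 0.13). Gm9706, annotated as a pseudogene, had log2 levels of 5.09, 5.41 and 6.36 in exposed mice, against 4.45, 4.74 and 4.87 in unexposed mice, a difference of 0.83 (SE 0.16, adjusted p = 0.00901) with no overlap. Tspan33, a tetraspanin, rose by 0.54 (SE 0.12, adjusted p = 0.0393) with 7 of 8 exposed mice above every unexposed mouse. Kdelr1, a receptor that returns proteins to the endoplasmic reticulum, fell by 0.44 (SE 0.10, adjusted p = 0.0439), with log2 levels of 8.13, 9.04 and 9.15 in exposed mice, against 9.18, 9.31 and 9.44 in unexposed mice, and no overlap. The call of Tspan33 was lost without exposed mouse 3, 4, 5 or 7 or unexposed mouse 1, 2, 4, 5 or 6, and that of Kdelr1 without exposed mouse 4 or 7 or any 1 of the 6 unexposed mice (adjusted p up to 0.133). Both were also lost with a term for the Gapdh ratio (adjusted p = 0.066 for each).

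Several programmes had no call. Their counts stand against 4.35% of all genes higher and 3.64% lower at an unadjusted p under 0.05 in limma. Of 35 cell cycle genes none passed in limma and 29 had a positive difference, with a median of 0.16; 5 were higher and 1 lower at an unadjusted p under 0.05. None passed in limma among 10 lung epithelial genes (median 0.03, none at an unadjusted p under 0.05), 14 genes of MHC class II presentation (median 0.13, 3 higher at that p) or 11 of MHC class I presentation (median 0.18, 3 higher). Goblet cell and type 2 genes (16 measured, median -0.036) held no call in limma and 3 lower genes at that p. The goblet cell gene Clca1 had a mean log2 level of 6.06 ± 1.53 in exposed mice and 6.12 ± 1.25 in unexposed mice (SD, n = 8 and 6), and the acute-phase gene Saa3 differed by 0.40 (SE 0.23, adjusted p = 0.719). Fungal recognition and Th17 genes (10 measured, median 0.11) had no call in limma and 1 lower gene at an unadjusted p under 0.05, Csf3, at -0.52 (SE 0.22, adjusted p = 0.531).

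**Figure D4:**
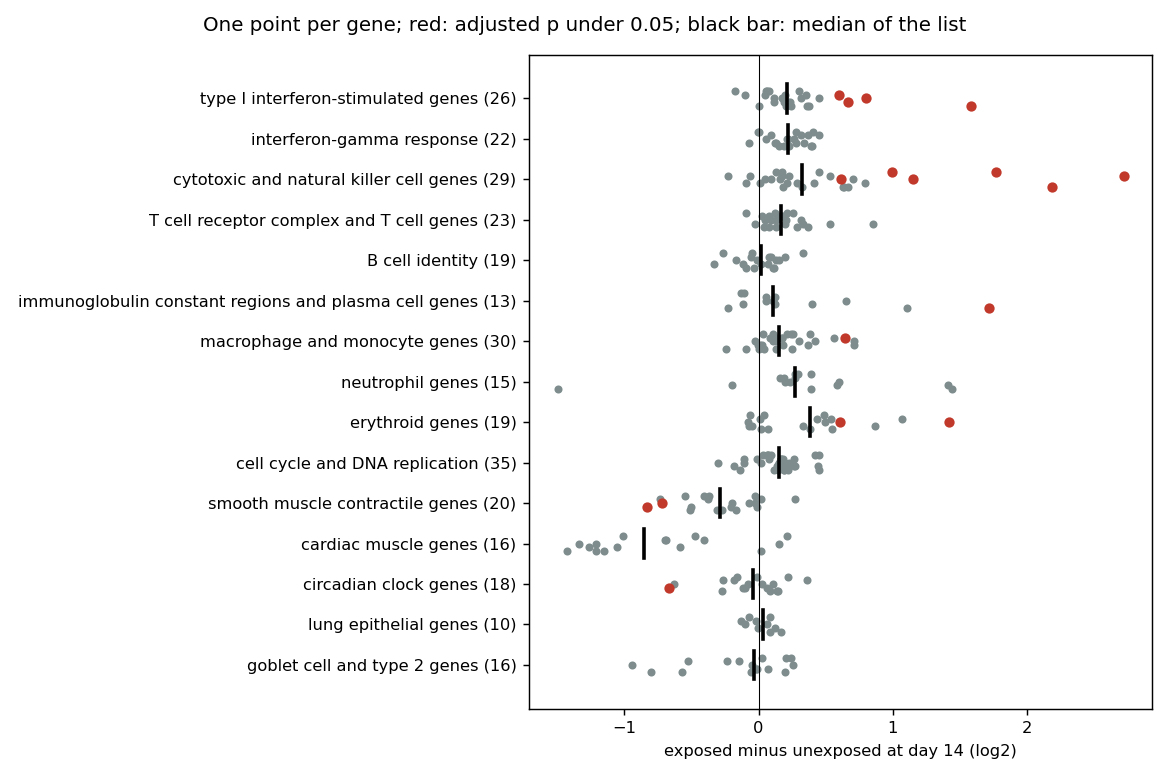
Each point is 1 measured gene, placed by its exposed minus unexposed log2 difference at day 14, with the number of measured genes of each list in brackets, genes at an adjusted p under 0.05 in red and a black bar at the median of the list. The cytotoxic list carries 6 red points and the interferon-stimulated list 4, all to the right of 0, and the 2 red points of the smooth muscle list lie to its left.

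The same experiment gives the exposure difference at day 7 (8 exposed and 4 unexposed mice) and at day 21 (6 exposed and 5 unexposed mice). No gene passed at either day in limma, although 545 genes (6.6%) at day 7 and 953 (11.5%) at day 21 had an unadjusted p under 0.05. Whether the day 14 difference itself departs from that of another day was tested by an interaction. No gene passed against day 7 (0%, with 634 genes or 7.68% at an unadjusted p under 0.05), and none against day 21 (0%, with 418 genes or 5.07%). A call at day 14 and none at the other days is therefore not a shown difference between days.

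For Igha the exposure difference was -0.13 (SE 0.31) at day 7, 1.72 (SE 0.28) at day 14 and 1.57 (SE 0.31, adjusted p = 0.0584) at day 21. For Ccl5 it was -0.08 (SE 0.23), 0.99 (SE 0.20) and 1.12 (SE 0.23, adjusted p = 0.0584) at days 7, 14 and 21, and for Selplg 0.26 (SE 0.12), 0.56 (SE 0.11) and 0.58 (SE 0.12, adjusted p = 0.0584). These genes thus had like values at days 14 and 21. For Rsad2 the differences were -0.33 (SE 0.30), 1.58 (SE 0.27) and 0.68 (SE 0.30), and for Slc4a1 -0.75 (SE 0.32), 1.42 (SE 0.28) and 0.58 (SE 0.31). For Gzmd they were 0.11 (SE 0.59), 2.73 (SE 0.52) and 0.26 (SE 0.59), and day 14 minus day 21 was 2.46 (SE 0.79, adjusted p = 0.909). The day 14 minus day 7 values nearest the threshold among called genes were 2.17 (SE 0.42, adjusted p = 0.0946) for Slc4a1, 1.91 (SE 0.40, adjusted p = 0.108) for Rsad2 and 1.84 (SE 0.42, adjusted p = 0.114) for Igha. Tagln differed by -0.05 (SE 0.13), -0.72 (SE 0.11) and -0.26 (SE 0.13) at the 3 days, and Per2 by -0.42 (SE 0.12), -0.67 (SE 0.11) and -0.27 (SE 0.12).

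**Figure D5:**
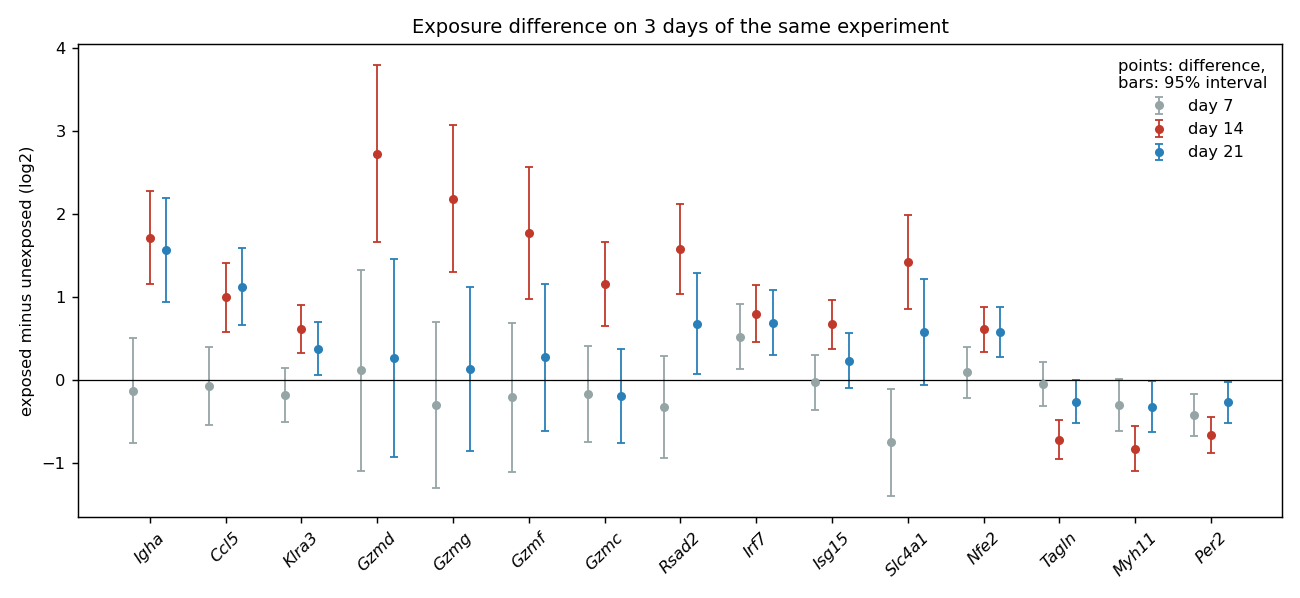
Points are exposed minus unexposed log2 differences at day 7 (grey), day 14 (red) and day 21 (blue) for 15 genes, with 95% intervals from the fit over 37 mice. The day 14 and day 21 points lie close together for Igha and Ccl5, and the day 14 points of the 4 granzymes stand above both other days with wide intervals.

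The unexposed mice of day 14 could also set a difference by being unusual themselves, so they were set against the unexposed mice of days 7 and 21. Igha was 0.42 lower (SE 0.27, p = 0.132, limma, unadjusted) and Per2 0.23 higher (SE 0.11, p = 0.0414, limma, unadjusted) in the unexposed mice of day 14. Tspan33 was 0.40 lower in them (SE 0.12, p = 0.00195, limma, unadjusted), and its exposure difference at day 21 was -0.28 (SE 0.14). With the unexposed mice of the 3 days pooled, 22 of the 23 genes passed and Tspan33 did not, at 0.28 (adjusted p = 0.341); 116 genes passed in that fit.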

How the data were processed

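Lung RNA of 14 mice was measured on Affymetrix arrays after biotin labelling, per the labels' protocols. The deposited values are linear intensities, 1 for each probe set on each array. The sources used here do not name the method of summarisation. After trimming 2% of values at each end, every array had a mean of about 100.0 intensity units, so the deposited intensities had been scaled by the authors or their software. Of 12487 probe sets, 10855 have 1 gene symbol in the platform annotation, 396 several and 1236 none. For 10838 probe sets the symbol was taken from RefSeq (GRCm38.p6) through the gene identifier, whether or not it differed from the annotation. Each gene was represented by its brightest probe set over the 37 arrays of days 7, 14 and 21, giving 8252 genes, of which 2075 had several probe sets.

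Levels were log2(intensity + 8). limma 3.58.1 in R 4.3.3 (lmFit and eBayes) was fitted over the 6 C57BL/6 groups of the 3 days, with Benjamini-Hochberg adjustment over all genes and a threshold of 0.05. The genes, lists and comparisons were chosen with earlier results of these data known, so lists are described by counts and medians with no test. Genes were named when they passed, or as the list members with the smallest p or from a short list of names; others are marked in the text. On simulated day 14 data for 8252 genes, 34, 48, 50 and 50 of 50 changed genes were found at log2 changes of 0.5, 1, 2 and 3, with 8 false calls among 8052. The simulated mice were independent, with the same spread in every group and the same change in every exposed mouse. The simulation therefore does not cover cage effects, other tissue in single mice or unequal spread between groups, and its figures need not hold for the real comparison. Promoter letters are from RefSeq. Alternatives covered the offset, dim genes, normalisation, the mice in the fit, probe sets, replicate number, RNA integrity, scores of other tissues and leaving out each mouse. The number of mice limits the precision.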

Additional observations from a re-analysis of the deposited data

Results flagged for a closer look

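A single mouse far from the rest of its group was found in 16 of 178 combinations of gene and group, by a test that chance sets off in about 1 of 20 groups. In exposed mice the log2 level was high in mouse 5 for Per2 (4.97) and for the immediate-early gene Egr1 (7.58), in mouse 2 for the heart genes Myh6 (10.64) and Actc1 (11.00), and in mouse 6 for the keratin gene Krt15 (3.24, near background). It was low in exposed mouse 6 for Cd3e (4.41) and the lymphoid cytokine Ltb (7.33), and in exposed mouse 2 for the nucleotide reductase subunit Rrm1 (4.94). Among unexposed mice, mouse 4 was high for the cyclin Ccnb2 (7.36), Ly6d (9.73), the muscle enolase Eno3 (10.57) and Egr1 (7.65), and low for the endothelial gene Vwf (8.39) and the alveolar protease Napsa (10.62). Unexposed mouse 2 was low for Cxcr3 (4.87), and unexposed mouse 6 was high for Clca1 (8.53).

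Among 1632 probe sets with several genes or none, which enter no comparison above, 4 passed in a limma fit over all 12486 probe sets (25 passed in all), and all 4 were higher in exposed mice. One is annotated to Gzme and Gzmd together (difference 1.99) and one to the T cell receptor gamma segments Trgv4 and Trgv2 (0.98, SE 0.18, adjusted p = 0.00758). The other two, with differences of 0.98 (SE 0.19, adjusted p = 0.0147) and 1.70 (SE 0.37, adjusted p = 0.0385), have no gene in the annotation used here.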

How the results depend on the processing

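The direction of each of the 23 called genes held in every alternative that tested it, and 9 of them passed in all 14 fits that left out 1 mouse: Gm9706, Gzmd, Igha, Mthfd2, Myh11, Per2, Rsad2, Slc4a1 and Tagln. Against the 23 genes called at day 14, 6 were called with only the 14 mice in the fit, 14 with the Gapdh ratio as a term, 39 with all 95 arrays, 84 with array weights, 116 with the unexposed mice of 3 days pooled and 1 with the erythroid score, an alternative chosen after seeing the data. Leaving out 1 mouse gave 10 (without unexposed mouse 4) to 52 (without exposed mouse 6). Without both of these mice, also chosen after seeing the data, 24 passed. For day 14 minus day 7, where none was called, 11 were called with all 95 arrays, 3 with array weights, 1 with the skeletal muscle score and 0 to 7 without 1 mouse, with 7 without exposed mouse 1. For day 14 minus day 21, 1 was called with all 95 arrays, 1 with the replicate number as a block and 0 to 2 without 1 mouse, with 2 without unexposed mouse 4. Same-numbered exposed and unexposed mice showed little shared deviation (r from -0.089 to 0.20 over genes, 2 of 6 closest to their own number). This check cannot exclude a batch shared by mice of the same number. With the replicate block 24 genes passed at day 14 and 5 of the 23 were lost. The causes of these changes were not tested. No detection calls were used, so a log2 level near 3 limits what can be said of dim genes.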

Other observations

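None of the genes named here passed in limma at day 14, and some belong to lists described above. Trgv4, a variable segment of the T cell receptor gamma chain, differed by 0.66 (SE 0.17, adjusted p = 0.107) at day 14, by -0.05 (SE 0.20) at day 7 and by 0.85 (SE 0.19, adjusted p = 0.12) at day 21. Plac8, a gene of activated leukocytes, differed by 0.83 (SE 0.21, adjusted p = 0.0932), with log2 levels of 8.43, 9.91 and 10.26 (lowest, median, highest) in exposed mice, against 8.69, 8.87 and 8.98 in unexposed mice; exposed mouse 6 was the low one. The integrin subunit Itgam differed by 0.56 (SE 0.16, adjusted p = 0.169) and Ighg3, the constant region of an immunoglobulin G class, by 0.65 (SE 0.19, adjusted p = 0.188). Tent5c, a poly(A) polymerase gene, differed by 1.16 (SE 0.30, adjusted p = 0.0907) and was highest in exposed mouse 6, as were Alas2 and Bpgm. Agr2, a secretory gene of goblet cells, was lower in every exposed mouse than in every unexposed mouse, at -0.94 (SE 0.29, adjusted p = 0.224). All but Agr2 and Alas2 were chosen after their values were seen.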
